A study of Mus musculus with 8 samples.

Results

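The genes described here are 5 members of the major urinary protein family, Mup3, Mup7, Mup11, Mup17 and Mup20, and the signalling inhibitor Socs2. They were selected on measured UMI counts in hepatocyte-like barcodes of an animal on a high fat, high cholesterol (HFHC) diet and of a control animal, so the difference between those barcodes is given as a description, without a test. They are 6 of the 31053 genes in the matrix, and the 5 Mup rows are part of 21 rows of that family. Those 5 rows carried 90.4% of the 23557 unique molecular identifiers (UMIs, counted transcripts) assigned to any Mup row.

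Liver stromal cells were profiled by single-cell RNA sequencing, with 1 library from each of 8 C57BL/6 mice, all labelled male, a label that 1 control library did not match. The groups were 4 mice on the HFHC diet, for which the sample titles say calorie where the design text says cholesterol, and 4 mice on a chow control diet. All mice were 6 to 8 weeks old when obtained and received their diet for 20 to 32 weeks, and the labels give no other treatment. The HFHC 4 library comes from the animal numbered 14. The sort, on antibodies to CD45, CD31, CD146 and podoplanin (PDPN), was meant to enrich endothelial cells, and hepatocytes were not its target.

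Major urinary proteins are small lipocalins that the male mouse liver secretes into blood and that pass into urine, where they carry and slowly release volatile pheromones. Pulsed growth hormone, acting through its receptor, the kinase JAK2 and the transcription factor STAT5b, keeps their genes active in male hepatocytes. Mup20 encodes darcin, a protein pheromone of male urine, and Socs2 is induced by the same pathway and inhibits growth hormone receptor signalling.

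The Mup genes lie together on chromosome 4, where the GENCODE vM21 annotation of mm10 places 22 Mup genes within 2.19 Mb, between 59956804 and 62150863. All 5 members are protein-coding genes on the minus strand: Mup7 (ENSMUSG00000073842) at chr4:60066469-60070475, Mup11 (ENSMUSG00000073834) at chr4:60658466-60662411, Mup17 (ENSMUSG00000096688) at chr4:61591929-61595871, Mup20 (ENSMUSG00000078672) at chr4:62050234-62054158 and Mup3 (ENSMUSG00000066154) at chr4:62083476-62087342. Socs2 (ENSMUSG00000020027) lies on the minus strand at chr10:95385362-95417180.

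The RefSeq promoter table for GRCm38.p6 held windows for 4 of the 6 genes, Mup3, Mup7, Mup11 and Mup17. The windows of 3 are shown because Mup3 on one side, and Mup7 and Mup11 on the other, differed in their distribution among the hepatocyte-like barcodes of the control animal. Each runs from 250 bases before to 50 bases after the annotated start, on the gene's own strand. Capitals mark the motif TATATAA, found in many TATA boxes and searched on both strands. Mup3 is at chr4:62087268-62087567, Mup11 at chr4:60662346-60662645 and Mup7 at chr4:60070426-60070725.
Mup3: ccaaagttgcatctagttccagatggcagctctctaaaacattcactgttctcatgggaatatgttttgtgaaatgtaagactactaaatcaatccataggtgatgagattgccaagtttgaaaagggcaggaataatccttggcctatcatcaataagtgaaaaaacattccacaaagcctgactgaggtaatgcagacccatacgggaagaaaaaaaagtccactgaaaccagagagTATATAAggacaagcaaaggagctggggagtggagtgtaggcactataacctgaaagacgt
Mup11: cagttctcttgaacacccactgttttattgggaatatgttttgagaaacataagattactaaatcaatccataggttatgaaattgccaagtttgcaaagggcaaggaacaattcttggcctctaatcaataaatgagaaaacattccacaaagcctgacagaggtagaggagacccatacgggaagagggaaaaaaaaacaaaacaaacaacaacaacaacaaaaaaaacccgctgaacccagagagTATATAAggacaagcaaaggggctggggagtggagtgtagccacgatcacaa
Mup7: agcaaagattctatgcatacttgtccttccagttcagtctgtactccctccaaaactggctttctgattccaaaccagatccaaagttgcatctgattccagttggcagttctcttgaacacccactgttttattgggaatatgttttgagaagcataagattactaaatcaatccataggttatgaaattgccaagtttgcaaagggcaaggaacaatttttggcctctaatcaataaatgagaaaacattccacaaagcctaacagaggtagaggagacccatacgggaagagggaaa
TATATAA was found in the windows of Mup3, Mup11 and Mup17 and not in that of Mup7, and in 13 of the 14 Mup genes that have a window. Its first base lay at -11 from the annotated start in Mup3, -2 in Mup11 and -25 in Mup17. Whether the motif acts as a TATA box was not tested. The Mup7 window ends before the stretch that holds the motif in the Mup11 window, so its absence there concerns only the bases shown. Over all 27025 genes with a window, 3.84% held it. TTCNNNGAA, the form of the STAT5 consensus searched for on both strands, was in none of the 14 Mup windows, against 9.55% of all genes, and its absence concerns only these 300 bases. The Mup11 and Mup17 windows were identical at 98.9% of 278 aligned bases and the Mup11 and Mup7 windows at 98.5% of 194 bases, where the Mup3 and Mup11 windows were identical at 77.4% of 292 bases.

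The likeness extends to the transcripts and limits what the counts can tell apart. Of the 90-base stretches in the last 500 bases of the annotated coding transcripts, where 3' reads fall, all of those of Mup3 and 90.3% of those of Mup20 occurred in no other gene. The share was 81.6% for Socs2, 65.2% for Mup17, 27.7% for Mup11 and 19.8% for Mup7, and a stretch could be shared by up to 17 genes. Counts of Mup7, Mup11 and Mup17 are therefore uncertain between near-identical genes, whereas those of Mup3, Mup20 and Socs2 rest mostly on sequence of their own. How reads from shared stretches were counted was not examined here. A ranking of Mup genes by UMIs, or the share of a gene among Mup UMIs, may therefore depend on this uniqueness as well as on expression.

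A barcode seen in several libraries was counted only where its UMIs were most numerous, which left 3192 of 3416 barcodes, with 47 to 857 barcodes in the HFHC libraries and 55 to 875 in the control libraries. HFHC 1, HFHC 2, HFHC 3, control 1 and control 2 had 33 to 65 barcodes in common, pair by pair, where other pairs had at most 4. Total UMIs ran from 304090 to 2309209 in the HFHC libraries and from 170448 to 1775987 in the control libraries. The library labelled control 4, from a mouse labelled male, held Xist UMIs in 67 of its 94 barcodes, and the other 7 libraries held none. Hepatocyte-like barcodes came almost wholly from 1 animal of each diet, with 626 in HFHC 3 and 668 in control 2, 4 in control 4, 1 in control 1 and none in the other libraries.

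The class met its label. In HFHC 3, 14 of 15 hepatocyte markers were present in at least 10% of hepatocyte-like barcodes, and in control 2 all 15 were. The barcodes nevertheless lay in different clusters, which were made from variable genes, without any Mup gene and without Socs2. Those of HFHC 3 were mostly in a cluster of 573, led by Saa2 and Apol9a, and another of 45, led by Cidec and Oat. Those of control 2 were in a cluster of 223 led by Hbb-bs, 1 of 150 led by Cyp2e1 and Oat, 1 of 203 led by Serpina1e and Alb and 1 of 89 led by Ugt2b5 and Tat. Several other measures also differed between these 2 sets of barcodes. Median UMIs per barcode were 1970 in HFHC 3 and 1083 in control 2, mitochondrial genes took 0.0713% and 4.42% of UMIs, the hepatocyte markers summed to 2.12% and 3.20%, and the 5 erythroid markers to 250 and 18672 CPM (UMIs of a gene scaled to a fixed total of the class, as counts per 1000000). All 6 B cell markers together had 18.9 CPM in HFHC 3 and 1935 CPM in control 2. The part of these differences in the levels below was not tested.

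In hepatocyte-like barcodes, Mup20 had the most counted UMIs of the members in both animals and all 5 Mup genes had lower levels in the HFHC animal. Together they made up 0.360% of UMIs in HFHC 3 and 1.32% in control 2, a ratio of 0.273, or 0.271 when shared barcodes were kept in every library. Because each diet has 1 library here, there is no replicate check and no test, and the 95% intervals cover counting error only. Animal, diet and library cannot be told apart.

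Mup20 had 4697 UMIs or 3062 CPM in HFHC 3, against 9776 UMIs or 9013 CPM in control 2, a level 2.94-fold lower (95% interval 2.84 to 3.05). Mup3, which encodes another secreted lipocalin of the family, had 665 UMIs or 434 CPM in HFHC 3 and 3252 UMIs or 2998 CPM in control 2, a 6.92-fold lower level (6.36 to 7.53). The counting intervals of the 2 libraries did not overlap for either gene, which does not speak to the spread between animals. Of the 5988 genes with at least 20 UMIs, 1.52% had a lower ratio than Mup20 and 0.651% a lower ratio than Mup3.

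Mup7 had 94 UMIs or 61.3 CPM in HFHC 3, against 972 UMIs or 896 CPM in control 2, and was 14.6-fold lower (11.8 to 18.3). Mup11 showed the widest gap of the members, with 12 UMIs or 7.82 CPM in HFHC 3 and 223 UMIs or 206 CPM in control 2, a 26.3-fold lower level (14.7 to 51.6). Mup17 showed the narrowest gap of the Mup members, with 58 UMIs or 37.8 CPM in HFHC 3 and 104 UMIs or 95.9 CPM in control 2, a 2.54-fold lower level (1.82 to 3.56). The fold of the 3 genes with shared sequence thus ran on both sides of those of Mup20 and Mup3.

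Socs2 was scarce in the class, with 21 UMIs or 13.7 CPM in HFHC 3 and 26 UMIs or 24.0 CPM in control 2. The ratio of 0.571 had an interval of 0.306 to 1.06, so a difference was not detectable at this depth. Of the 6 genes, 5 were at least 2-fold lower in HFHC 3, the condition for which they had been chosen, while 3.54% of the 5988 genes with at least 20 UMIs were 2-fold lower and 8.13% were 2-fold higher. The median log2 ratio of all 5988 genes was 0.19, and relative to it the members lay lower still.

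**Figure D1:**
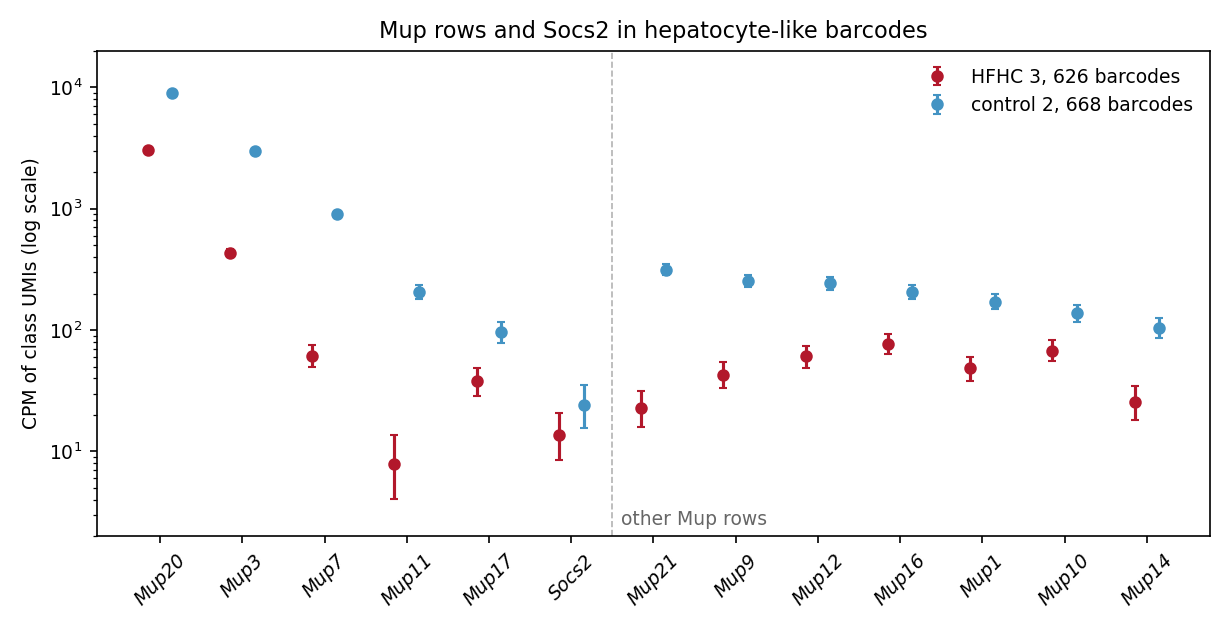
Level of each Mup row with at least 20 UMIs and of Socs2 in hepatocyte-like barcodes, in CPM of the class's UMIs on a log axis, for HFHC 3 (red, left of each pair) and control 2 (blue, right). Points are the summed counts of 1 library and bars are exact Poisson 95% intervals. Every Mup row is lower in HFHC 3, from Mup10 (2.04-fold) to Mup11 (26.3-fold), and the Socs2 intervals overlap.

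The other Mup rows had levels in the same order of the animals. Of 16 such rows, 7 had at least 20 UMIs, and all 7 were lower in HFHC 3. Mup21 had 22.8 CPM in HFHC 3, a level 13.8-fold lower than in control 2, Mup9 was 5.91-fold lower, Mup14 4.10-fold, Mup12 4.01-fold, Mup1 3.55-fold, Mup16 2.66-fold and Mup10 2.04-fold. Of the stretches compared above, 91.2% were unique to Mup21, against 0 to 42.0% for the other 6 rows, whose counts may thus share reads with the members.

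Dividing by the hepatocyte markers in place of all UMIs narrowed the gaps. Per 1000 UMIs of the 15 markers, the Mup members summed to 170 UMIs in HFHC 3 and 412 UMIs in control 2, a ratio of 0.412. On that scale the ratio was 0.514 for Mup20, 0.219 for Mup3, 0.103 for Mup7, 0.596 for Mup17 and 0.864 for Socs2. Mup20 and Mup17 were then less than 2-fold lower.

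The share of barcodes with a UMI was lower in HFHC 3 for Mup20, Mup3, Mup7 and Mup11. After thinning to 1000 UMIs, which left out 89 shallower barcodes of HFHC 3 and 304 of control 2, Mup20 was found in 84.4% of HFHC 3 and 92.6% of control 2 barcodes (Wilson 95% intervals 81.0 to 87.2% and 89.4 to 94.9%). Mup3 was found in 33.0% of HFHC 3 and 77.7% of control 2 barcodes, Mup7 in 6.33% and 46.2%, and Mup11 in 0.745% and 13.7%. Unthinned, Mup20 was in 92.5% of HFHC 3 and 94.3% of control 2 barcodes. In barcodes of other classes, at median depths of 2369 and 2322 UMIs, the thinned share for Mup20 was 27.4% in HFHC 3 and 30.7% in control 2. For Socs2 the share was 1.49% in HFHC 3 and 1.92% in control 2. In other classes of those libraries it was 2.49% and 4.69%, and since some of these classes hold more Socs2 than hepatocyte-like barcodes, that share is no measure of its background.

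Mup UMIs were unevenly spread over barcodes in both animals. The tenth of barcodes with most Mup20 UMIs held 39.9% of them in HFHC 3 and 50.6% in control 2, and the median barcode had 5 and 7 Mup20 UMIs. The highest single barcode had 130 Mup20 UMIs in HFHC 3 and 317 in control 2.

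The clusters of the class differed among themselves most in control 2. Mup20 had 2985 and 4333 CPM in the HFHC 3 clusters of 573 and 45 barcodes. In control 2 it had 2966 CPM in the cluster led by Cyp2e1, 7459 in that led by Hbb-bs, 10259 in that led by Ugt2b5 and 15801 CPM in that led by Serpina1e. Levels of Mup20 in the 2 animals therefore overlapped by cluster. Mup3 did not overlap, at 434 and 441 CPM in the HFHC 3 clusters and 1152 to 5198 CPM in those of control 2. Mup7 was at 58.3 and 122 CPM in HFHC 3 and at 423 to 1788 CPM in control 2, and Mup17 overlapped, at 33.3 and 122 CPM in HFHC 3 and 59.1 to 140 CPM in control 2.

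Hepatocytes differ along the liver lobule, from the portal side, where Cyp2f2 and the histidine-degrading enzyme Hal are high, to the central vein, where the glutamine-forming enzyme Glul and Cyp2e1 are high. A score from a pericentral and a periportal gene list, neither of which holds a member, ranked the barcodes within each library, and each ranking was divided into terciles. In the pericentral tercile Glul had 644 CPM in HFHC 3 and 2242 CPM in control 2, and in the periportal tercile 45.9 and 29.8 CPM. Terciles are ranges of a score and not cell types: 60 and 61 barcodes of HFHC 3, and 82 and 57 of control 2, lay within 0.1 SD of a boundary.

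In control 2 the members divided by position. Mup20 had 13048 CPM in the periportal, 9770 in the middle and 3887 CPM in the pericentral tercile, and Mup3 had 4184, 3415 and 1321 CPM. Mup7 and Mup11 ran the other way, Mup7 with 308, 814 and 1618 CPM and Mup11 with 34.8, 72.3 and 511 CPM. The level in the pericentral tercile over that in the periportal tercile was 0.298 for Mup20, 0.316 for Mup3, 5.25 for Mup7 (4.32 at the low end of its interval) and 14.7 for Mup11 (8.54 at the low end). For Mup17 the ratio was 1.73.

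In HFHC 3 Mup20 had 2626, 2668 and 4243 CPM from the periportal to the pericentral tercile, a ratio of pericentral to periportal of 1.62. Mup3 had 462, 319 and 532 CPM, with a ratio of 1.15 whose interval included 1. Mup7, with 50.6, 43.9 and 99.8 CPM, and Mup11, with 3.16, 5.99 and 17.5 CPM, were again highest on the pericentral side, at 2, 3 and 7 UMIs for Mup11. Mup17 had 17.4, 16.0 and 97.3 CPM, a ratio of 5.59. By CPM, Mup20 was thus highest in the periportal tercile of control 2 and in the pericentral tercile of HFHC 3. This difference between the animals was not tested. Depth also differed along the HFHC 3 terciles, with medians of 2513, 1858 and 1539.5 UMIs per barcode. Mup20 had 1660, 1337 and 1700 UMIs there, so its raw counts were similar in the periportal and pericentral terciles. Per 1000 hepatocyte marker UMIs it had 128, 129 and 185. The control 2 terciles had medians of 1253, 934 and 1052.5 UMIs per barcode, and 5254, 3107 and 1415 UMIs of Mup20.

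**Figure D2:**
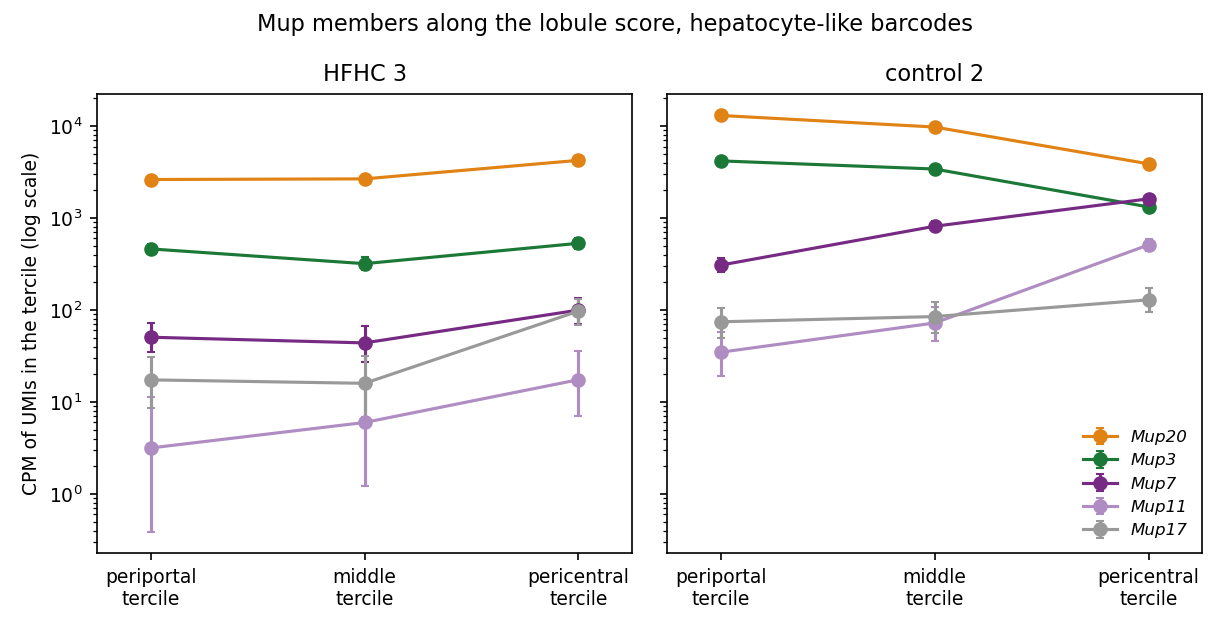
Level of the 5 Mup members in terciles of a lobule score, from periportal to pericentral, in hepatocyte-like barcodes of HFHC 3 (left) and control 2 (right), in CPM of the tercile's UMIs on a log axis with exact Poisson 95% intervals. In control 2 Mup20 and Mup3 are lower, and Mup7 and Mup11 higher, on the pericentral side, while in HFHC 3 Mup20 has 2626 CPM in the periportal and 4243 CPM in the pericentral tercile.

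At matched terciles, a comparison chosen after the values were seen, the gap between the animals depended on the gene. In the periportal tercile Mup20 was 4.97-fold lower in HFHC 3 (4.70 to 5.25), in the middle tercile 3.66-fold lower, and in the pericentral tercile it had 4243 CPM in HFHC 3 and 3887 CPM in control 2, a ratio of 1.09 (1.02 to 1.17). Mup3 was 9.06-fold lower in the periportal, 10.7-fold in the middle and 2.49-fold in the pericentral tercile. Mup7 was 6.08-fold lower in the periportal (4.10 to 9.28), 18.6-fold in the middle (12.0 to 30.1) and 16.2-fold lower in the pericentral tercile (11.8 to 22.9). The ranks were set within each library, so the same tercile need not hold cells of the same position in both animals.

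Correlations across barcodes describe the same pattern, and all barcodes of a library share its depth and free RNA. In control 2, over 668 barcodes, Pearson's r between log-normalised Mup20 and Mup3 was 0.53, between Mup20 and Mup7 -0.29 and between Mup7 and Mup11 0.31. Over the 626 barcodes of HFHC 3 these were 0.11, 0.05 and 0.14. Among 1672 genes outside the family that were present in at least 10% of barcodes in both libraries, those most like the summed Mup members were Alb, Ttr, Apoe, Apoc3 and Apoc1, all secreted plasma proteins, with mean r of 0.25 to 0.31. For Alb, r was 0.15 in HFHC 3 and 0.48 in control 2. The others had r of 0.21 to 0.28 in HFHC 3 and 0.26 to 0.34 in control 2.

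Genes of the growth hormone pathway were listed for comparison. Of 16 genes of growth hormone and STAT5 signalling, 8 had at least 20 UMIs, and none was 2-fold lower or higher in HFHC 3. Ghr, the growth hormone receptor, had 460 UMIs or 299.9 CPM in HFHC 3 and 342 UMIs in control 2, a log2 ratio of -0.07, and Igf1, a target of growth hormone, had a log2 ratio of -0.13. Stat5b had 36 UMIs in HFHC 3 and 21 in control 2, and the feedback inhibitor Cish 19 and 8 UMIs, with intervals that included a ratio of 1.

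Of 18 male-biased liver genes that depend on growth hormone, 9 had enough UMIs. Of these, 6 were at least 2-fold lower in HFHC 3 and none 2-fold higher, with a median log2 ratio of -1.32. In all, 8 were lower and 1 was higher, with a log2 ratio of 0.91. Among all 5988 genes, 3.54% were at least 2-fold lower and 8.13% at least 2-fold higher, with a median of 0.19. Serpina1e, a protease inhibitor, had 723 UMIs or 471 CPM in HFHC 3 and 4414 UMIs in control 2, a log2 ratio of -3.11. The fatty acid elongase Elovl3 had a log2 ratio of -1.91 and Cyp2d9 one of -1.32. Hsd3b5, a steroid dehydrogenase of male liver, had 0 UMIs in HFHC 3 and 38 UMIs in control 2, at least 17.9-fold lower against a floor of 3 counts in HFHC 3, and the list's median is the same with this gene at that bound. Among 18 female-biased genes only Acot3 had enough UMIs, with a log2 ratio of -2.44, and Cyp2b9, Cyp3a41a, Sult2a1 and Cux2 were at 0 in both animals.

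The lists of lobule position and of secreted proteins differed too. Of 8 pericentral genes with enough UMIs, 6 were at least 2-fold lower in HFHC 3, where 3.54% of all 5988 genes were. Glul had a log2 ratio of -1.85 and Cyp2e1 one of -1.56. None of 10 periportal genes was 2-fold lower or higher. Of 13 secreted proteins, Alb was more than 2-fold lower, with 2867 CPM in HFHC 3 and a log2 ratio of -1.09, and Lcn2, another lipocalin, and the acute-phase proteins Orm1 and Orm2 were more than 2-fold higher. The lower levels of Mup20 and Mup3 in HFHC 3 thus stood beside lower Alb and lower pericentral genes. Mup20 and Mup3 themselves were highest in the periportal tercile of control 2.

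Outside the hepatocyte-like class Mup UMIs were found in every library. In the HFHC libraries 1 to 4 the summed members had 109, 15, 478 and 63 UMIs, or 358, 47.3, 617 and 58.4 CPM. In the control libraries 1 to 4 they had 43, 519, 206 and 4 UMIs, or 253, 751, 246 and 15.9 CPM. HFHC 3 and control 2, the libraries that hold the hepatocyte-like barcodes, were highest within their diets, and the diets overlapped. In HFHC 3 the level of Mup20 was 135.6 CPM in monocyte or macrophage-like and 271 CPM in T or NK-like barcodes, and in control 2 it was 423 CPM in LSEC-like (liver sinusoidal endothelial) and 599 CPM in B cell-like barcodes, each in cells that do not make these proteins. A cluster led by cell cycle genes, which could not be named, held 255 of the 395 Mup20 UMIs of HFHC 3 outside the class in 23 barcodes, at 1861 CPM, and 90 of the 346 of control 2 in 14 barcodes, at 967 CPM.

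Relative to hepatocyte markers, Mup UMIs over all barcodes outside the class were somewhat fewer than in the hepatocyte-like barcodes of the same library. Per 1000 UMIs of the hepatocyte markers, the Mup members outside the class summed to 143 in HFHC 3, which was 0.843 times (0.766 to 0.925) the value in its hepatocyte-like barcodes, and to 314 in control 2, which was 0.760 times (0.695 to 0.830). Mup11 in control 2 ran the other way, at 2.54 times (1.64 to 3.80). Socs2 also did, at 8.35 times in HFHC 3 (4.19 to 16.5) and 21.0 times in control 2 (11.7 to 37.6) of its value in hepatocyte-like barcodes, so most of its UMIs outside the class did not follow the hepatocyte markers. Without cholangiocyte-like (bile duct) barcodes, 2920 of the 3336 marker UMIs outside the class remained in HFHC 3 and 1269 of 1655 in control 2. Per 1000 of these, the Mup members summed to 161 in HFHC 3 (146 to 176) and 395 in control 2 (361 to 431). These intervals include the values of the hepatocyte-like barcodes, 170 and 412. Leaving out the unnamed cell cycle cluster instead kept 1469 marker UMIs in HFHC 3 and 1322 in control 2. Per 1000 of these, the Mup members summed to 114 in HFHC 3 (97.1 to 132) and 287 in control 2 (259 to 317), below the hepatocyte-like values. In HFHC 3 that cluster alone held 1867 marker UMIs, with 167 Mup UMIs per 1000.

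The same quantity was available for all 8 libraries. Per 1000 marker UMIs the Mup members summed to 153, 16.7, 143 and 368 in HFHC libraries 1 to 4, and to 173, 314, 519 and 18.7 in control libraries 1 to 4. The mean was 170 ± 146 in HFHC libraries and 256 ± 213 in control libraries (SD, n = 4 each), and the diets overlapped. The mean of HFHC minus that of control was -85.9, and it was 1.71 without control 3, -34.7 without HFHC 2, -152 without HFHC 4 and -165 without control 4. Mup20 alone gave 120, 13.4, 118 and 246 in HFHC libraries 1 to 4 and 60.5, 209, 171 and 0 in control libraries 1 to 4. The values depended on the cholangiocyte-like barcodes, without which HFHC 2 kept 109 of 898 marker UMIs and control 3 kept 164 of 397. The Mup members then summed to 202, 91.7, 161 and 368 in HFHC libraries 1 to 4. In control libraries 1 to 4 the sums were 344, 395, 1244 and 40.4, and the diets again overlapped.

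Mup7 divided the libraries in another way. It gave 2.80, 1.11, 1.20 and 11.7 per 1000 marker UMIs in HFHC libraries 1 to 4, from 2, 1, 4 and 2 UMIs, and 32.3, 27.2, 176 and 0 in control libraries 1 to 4, from 8, 45, 70 and 0 UMIs. The control libraries 1, 2 and 3 had higher values than every HFHC library, but the interval of HFHC 4, 1.42 to 42.2, covered the values of control 1 and control 2. Control 4 could not be ranked, since its count of 0 allows up to 14.0, above each HFHC value. Control 4, the library with Xist, had 0 UMIs of Mup20, Mup7 and Mup11 and 2 each of Mup3 and Mup17 beside 214 marker UMIs outside the class. Its 4 hepatocyte-like barcodes held 186 marker UMIs, 5 of Mup3, 3 of Mup17 and 0 of Mup20.

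**Figure D3:**
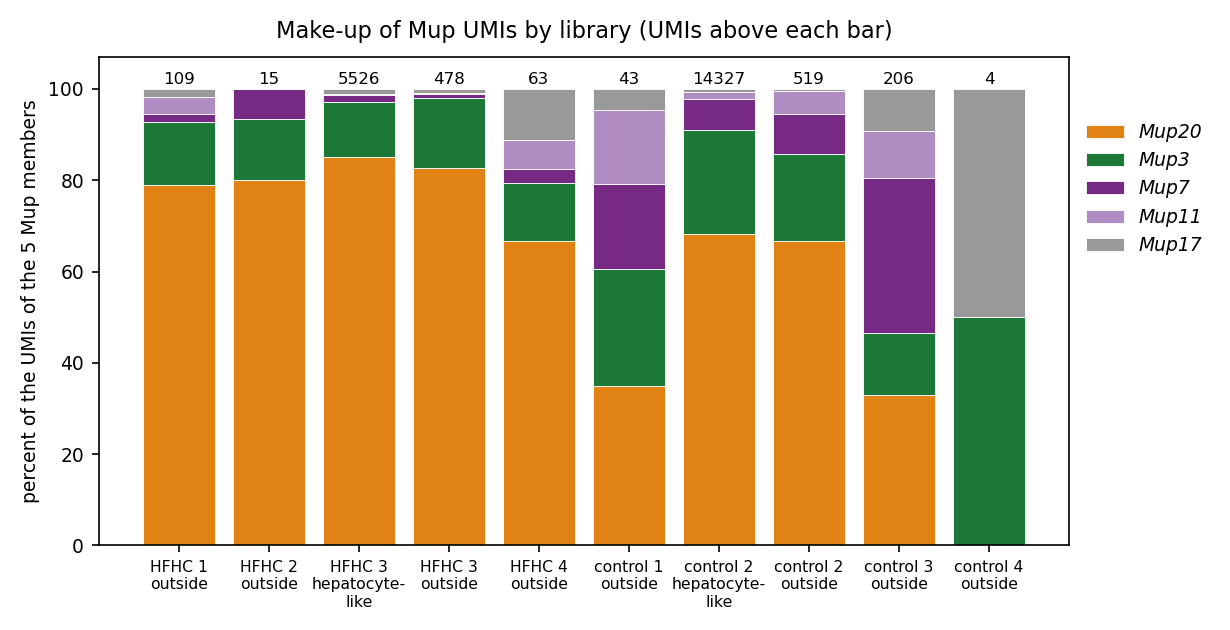
Make-up of the UMIs of the 5 Mup members in each library with at least 10 barcodes in the category, in percent, for barcodes outside the hepatocyte-like class and for the hepatocyte-like barcodes of HFHC 3 and control 2, with HFHC libraries on the left and the number of UMIs above each bar. Mup20 is 66.7 to 82.6% of the UMIs outside the class in the HFHC libraries and 0 to 66.7% in the control libraries, of which control 4 has 4 UMIs.

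Mup20 took a larger share of the Mup UMIs in the hepatocyte-like barcodes of HFHC 3. It made up 85.0% of Mup UMIs in HFHC 3 and 68.2% in control 2, Mup3 12.0% and 22.7%, and Mup7 1.70% and 6.78%. Outside the class, Mup7 made up 34.0% of Mup UMIs in control 3, with 70 UMIs beside 68 of Mup20.

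Socs2 was found mainly in cholangiocyte-like (bile duct) barcodes in HFHC 1 and HFHC 2, where these held 172 of 186 Socs2 UMIs, against 13 of 177 in the other 6 libraries. In HFHC 1, 13 such barcodes held 80 Socs2 UMIs or 713 CPM, all 13 with at least 1, and in HFHC 2, 36 barcodes held 92 UMIs or 420 CPM, 26 with at least 1. Vascular endothelial-like barcodes had 52.5 CPM in HFHC 4 against 108 CPM in control 2 and 188 CPM in control 3, and LSEC-like barcodes 42.6 CPM in HFHC 4 against 43.2, 23.7 and 25.7 CPM in control libraries 2, 3 and 4. The intervals overlapped within both endothelial classes, and those of the cholangiocyte-like barcodes lay above all others except that of vascular endothelial-like barcodes in control 3. Cholangiocyte-like barcodes numbered at most 5 in each of the other libraries, below the minimum of 10, so no control value is given for them.

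**Figure D4:**
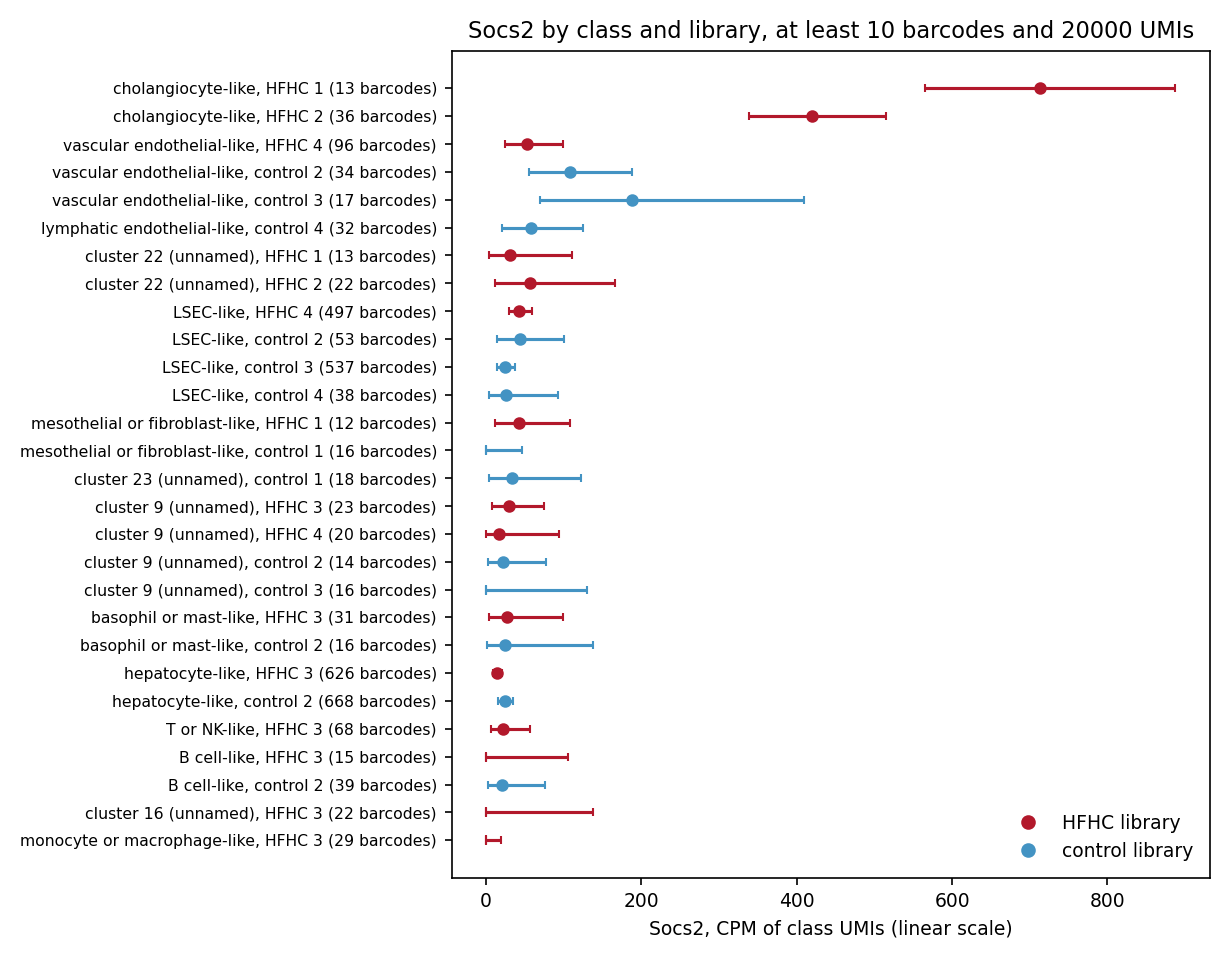
Socs2 in each class and library with at least 10 barcodes and 20000 UMIs, in CPM of the class's UMIs on a linear axis, with classes ordered by their highest value and HFHC libraries (red) above control libraries (blue) within each class. Points are summed counts with exact Poisson 95% intervals, and a bar without a point has 0 UMIs. The cholangiocyte-like barcodes of HFHC 1 (713 CPM) and HFHC 2 (420 CPM) are highest.

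Across all barcodes outside the hepatocyte-like class, Socs2 had 286, 312, 23.2 and 42.6 CPM in HFHC libraries 1 to 4 and 23.5, 37.6, 31.1 and 31.8 CPM in control libraries 1 to 4. HFHC 1 and HFHC 2 stood above the rest, and HFHC 3 was the lowest of all. Without the cholangiocyte-like barcodes the levels were 36.5, 71.4, 17.5 and 42.6 CPM in HFHC libraries 1 to 4 and 12.7, 32.9, 29.3 and 34.5 CPM in control libraries 1 to 4, or 42.0 ± 22.3 and 27.4 ± 10.0 CPM (SD, n = 4 each). In bulk sums of this kind, more cells of a type and more RNA per cell cannot be told apart.

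Counts summed over all barcodes of each library were compared between diets with edgeR's quasi-likelihood test. Of 6666 genes tested, 0 (0%) passed a Benjamini-Hochberg adjusted p of 0.05, 54 had an unadjusted p under 0.05, and DESeq2 called 0. The log2 fold change of HFHC over control was -1.18 for Mup20 (SE 2.11), -2.36 for Mup3 (SE 1.83), -3.55 for Mup7 (SE 1.65), -1.28 for Mup17 (SE 0.94) and 2.30 for Socs2 (SE 0.82), and Mup11 did not pass the filter on low counts. The sums of Mup20 and Mup3 turned on 1 library: without control 2, their log2 fold changes were 3.94 and 1.78.

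Outside the class 6318 genes were tested, and 0 (0%) passed, with 143 at an unadjusted p under 0.05 and 1, the potassium channel subunit Kcne3, called higher by DESeq2. Here 3 of the 6 genes passed the filter on low counts, with log2 fold changes of 0.42 for Mup20 (SE 1.33), -0.59 for Mup3 (SE 1.03) and 2.38 for Socs2 (SE 0.81). Leaving out HFHC 3 gave Mup20 a log2 fold change of -0.58, and leaving out control 2 gave 2.14. No gene of the growth hormone list, of which 9 were tested in each fit, passed. On simulated counts of the layout with all barcodes, edgeR recovered 6% of 4-fold and 26% of 8-fold changes among 6666 genes, and outside the class 20% and 76% among 6318 genes.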

How the data were processed

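The authors deposited a single table of unnormalised UMI counts (genes by barcodes), made with Cell Ranger 3.0.1 and Seurat on mm10, per the submitters' processing notes. For the annotation release and Seurat's version, the sources used here give nothing. Copies of a barcode outside its deepest library were dropped, leaving 3192 of 3416. Barcodes were clustered with scanpy 1.11.5 and leidenalg 0.10.2 (2000 variable genes, 30 components, 15 neighbours, resolution 1), and clusters took a "-like" name from at least 3 markers in at least 10% of barcodes at a log2 fold of at least 1. Scrublet called 72 doublets, which were kept in the main values.

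Libraries held 170448 to 2309209 UMIs. CPM are UMIs per 1000000 UMIs of the same barcodes. Intervals are exact Poisson for CPM, exact conditional for ratios and Wilson for shares, at 95%, and cover counting error only; a count of 0 allows up to 3 counts. UMIs of the 4 and 4 libraries were summed and tested with edgeR 4.0.16 in R 4.3.3 (TMM, filterByExpr, robust quasi-likelihood test, Benjamini-Hochberg adjustment), with DESeq2 1.42.0 as an alternative, after tests on simulated counts. The SE was derived from the fold change and F statistic. The intended edgeR fit of hepatocyte-like barcodes was not possible with 1 library per diet of at least 10 such barcodes. Each library is 1 mouse. Members, gene lists, markers and rules were chosen with earlier results of these data known; named genes other than the members came from a fixed list of 23 growth hormone, male-biased, female-biased, secreted and lobule genes, with the 5 genes most like the summed Mup members. The genes that lead clusters, Acot3, Lcn2, Orm1, Orm2, Kcne3 and Spp1 were named after their values were seen. Promoter windows are RefSeq's (GRCm38.p6), and transcripts and positions GENCODE vM21.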

Additional observations from a re-analysis of the deposited data

Results flagged for a closer look

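Of 36 sets of 4 libraries of 1 diet examined, 8 held a library far from the other 3, by a gap past Dixon's critical value for 4 samples at 95%. Chance flags about 1 in 20 such sets, and the sets share libraries and genes.

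Over all barcodes, HFHC 3 stood above the other HFHC libraries in Mup20, with 2205 CPM where the next library had 283 CPM, in Mup3, with 320 CPM and a next value of 49.3 CPM, and in Mup7, with 42.4 CPM and a next value of 6.58 CPM. Control 2 stood above the other control libraries in Mup20, with 5699 CPM and a next value of 99.7 CPM, in Mup3, with 1887 CPM and a next value of 64.5 CPM, and in Mup7, with 573 CPM and a next value of 83.7 CPM. These are the libraries with most hepatocyte-like barcodes.

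Outside the hepatocyte-like class, HFHC 4 stood above the other HFHC libraries per 1000 hepatocyte marker UMIs, with 40.9 for Mup17, from 7 UMIs, and a next value of 2.80, and with 11.7 for Mup7, from 2 UMIs, and a next value of 2.80. At 2 UMIs the Mup7 value has little precision.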

How the results depend on the processing

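The ratio of summed Mup UMIs in hepatocyte-like barcodes, 0.273, was 0.259 without Scrublet doublets, 0.262 at clustering resolution 2, 0.241 with the class taken from marker expression, 0.412 per hepatocyte marker UMI and 0.258 without Mup and mitochondrial genes in the denominator. Each of the 6 genes kept a ratio under 1 in all 9 alternatives, which all compare HFHC 3 with control 2. Among these, a minimum of 5 or of 20 barcodes could not change a ratio. For Socs2 the interval was 0.306 to 1.06 in the main setting and 0.462 to 1.60 per hepatocyte marker UMI. The difference in thinned Mup20 shares, -8.22 percentage points, was -15.5 at 500 UMIs. The mean Mup UMIs per 1000 marker UMIs outside the class, 85.9 lower in HFHC, differed by 201 the other way with Alb alone as reference (1029 in HFHC) and by -165 to 1.71 on leaving out each library, an alternative added after seeing the data. For the edgeR fits, leaving out any 1 library called 0 genes. Within the 3 libraries outside the barcode-sharing set 1 gene was called over all barcodes (Spp1, lower), from 1 HFHC library that is assumed to vary like the control libraries, and DESeq2 called 1 outside the class (Kcne3).

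Direction changed for Mup20 over all barcodes with the replicate block (2.32) and without control 2 (3.94), and for Mup3 without control 2 (1.78). Outside the class Mup20 changed to -0.0954 within the barcode-sharing libraries, -0.109 within the others (again 1 HFHC library), -0.0788 with library set as covariate and -0.0309 without the cell cycle cluster (both added after seeing the data), -0.576 without HFHC 3, -0.17 at resolution 2 and -1.89 with the class from marker expression, and Mup3 to 0.42 without control 2. On leaving out each library in turn, the log2 fold change over all barcodes ran from -5.05 to 1.78 for Mup3 and from -4.05 to 3.94 for Mup20, and outside the class from -1.74 to 0.42 for Mup3 and from -0.576 to 2.14 for Mup20. The causes were not tested. Socs2 stayed above 0 throughout, at 0.39 to 2.69 over all barcodes. No alternative left out the cholangiocyte-like barcodes, which held 172 of the 186 Socs2 UMIs of HFHC 1 and HFHC 2.

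Replicate numbers did not pair the libraries: correlations of same-numbered libraries over all barcodes were 0.50, -0.08, -0.42 and 0.16, and the replicate block called 0 genes in both fits. No paired analysis was possible for hepatocyte-like barcodes because 1 library of each diet held them, and for the same reason leave-one-out, DESeq2 and filter alternatives were not run there. Depth limits Mup11 (12 UMIs in HFHC 3) and Socs2 (21 UMIs).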
